A study of Mus musculus with 8 samples.

Results

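Calcium release and calcium handling were followed at the transcript level in skeletal muscle of mice heterozygous for *Eif6*, through 9 genes: *Ryr1*, *Cacna1s*, *Cacnb1*, *Rem1*, *Casq1*, *Casq2*, *Sln*, *Pvalb* and *Mcu*. The genes were chosen by name, and every array probe whose RefSeq accession belongs to one of them is shown, which gave 11 of 55681 probes and 9 of 20660 named genes. *Cacna1s* and *Pvalb* had 2 probes each and the others 1. *Eif6* encodes a ribosome-binding initiation factor, and the *Eif6+/-* mice carried a heterozygous inactivation of it in the whole body. The WT mice were littermates with both alleles, and by the methods all mice were male, on a C57BL6 background and 8 to 16 weeks of age. Gastrocnemius and tibialis anterior (TA), both mostly fast hindlimb muscles, had 4 arrays each, and every array carried RNA of 1 *Eif6+/-* mouse and of 1 WT mouse of like age, put together at random. The labels give Cy5 to *Eif6+/-* and Cy3 to WT on each of the 8 arrays, the methods speak only of Cy3, and the dyes were never swapped, so genotype and dye cannot be told apart within a muscle. The arrays shared a slide with the muscles in separate rows, so row and muscle cannot be told apart, and the labels do not say whether an array of gastrocnemius and an array of TA came from the same mice.

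An array held 62976 spots, 59305 of them for genes, and none was saturated. The median gene spot had an intensity of 60 to 74 in Cy5 over a local background of 41 to 44, and of 46 to 61 in Cy3 over a background of 20 to 22. By the scanner's marks, 43.6% to 48.6% of probes per array were well above background in Cy5 and 38.8% to 46% in Cy3. Values below are log2 ratios of *Eif6+/-* over WT after normalization, or normalized log2 intensities, which can be set against each other for the same probe but not between probes. In each muscle limma tested every ratio against 0, over the 23802 probes of gastrocnemius and 23391 of TA that passed a filter, which asked that all 4 arrays show the probe well above background in Cy5 or Cy3. A probe is called here when its p, adjusted by Benjamini-Hochberg over those probes, was under 0.1. All 11 probes of the calcium genes passed this filter in both muscles. The number of arrays, 4 a muscle, limits the precision.

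In skeletal muscle an action potential in the transverse tubule moves the voltage sensor of the L-type calcium channel, and this movement opens the ryanodine receptor of the facing sarcoplasmic reticulum without calcium having to enter from outside. Calsequestrin holds the stored calcium, SERCA pumps return what was released, sarcolipin slows the pump, parvalbumin binds calcium in the cytosol of fast fibers, and the mitochondrial uniporter takes up a part. The amounts of these proteins differ between fast and slow fibers, which is part of what sets how quickly a fiber contracts and relaxes.

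*Eif6* was examined first, as a check of the labels. Its log2 ratio at probe A_55_P1989013 was −0.995, −1.32, −1.11 and −1.09 in gastrocnemius pairs 1 to 4 and −1.20, −1.04, −1.21 and −1.04 in TA pairs 1 to 4. Probe A_52_P85864 gave −0.97, −1.15, −0.89 and −1.06 in gastrocnemius pairs 1 to 4 and −1.22, −1.03, −0.95 and −0.80 in TA pairs 1 to 4. Every array thus had less *Eif6* signal in the channel labeled *Eif6+/-*, by both probes, which is the direction of the genotype, although it is not known whether the probes cover the part that was inactivated. The mean of probe A_55_P1989013 was −1.13 ± 0.14 (SD, n = 4) in gastrocnemius (adjusted p 0.0241, 0.457 of WT) and −1.12 ± 0.095 in TA (adjusted p 0.00294, 0.46 of WT). Probe A_52_P85864 had means of −1.02 ± 0.11 (adjusted p 0.0241) and −0.999 ± 0.17 (adjusted p 0.0109). The gastrocnemius calls needed pairs 3 and 4: without pair 3 or without pair 4 limma called no probe of the array, with 4204 and 4449 probes at an unadjusted p under 0.05. *Eif6* itself was then not called (probe A_55_P1989013 −1.14, adjusted p 0.121 without pair 3 and −1.14, adjusted p 0.156 without pair 4; probe A_52_P85864 −1.06, adjusted p 0.121 and −1.004, adjusted p 0.156). Over all alternatives the adjusted p of both probes lay between 0.00826 and 0.156 in gastrocnemius.

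In gastrocnemius limma called 3 of the 11 probes, where 13.8% of all tested probes were called. Of the 3, 2 were lower in *Eif6+/-* (*Cacnb1* and *Casq1*; 5.68% of all probes were called lower). The other, *Rem1*, was higher (8.08% called higher) but passed the filter through Cy5 alone, with Cy3 well above background on 1 of 4 arrays, so its call is set against a WT signal mostly near background and is not read as a measured difference. By gene, with the brightest probe standing for each, this was 3 of 9, 1 higher (*Rem1*) and 2 lower, beside 9.86% of 12615 genes called higher and 5.53% called lower. At an unadjusted p under 0.05 there were 4 probes, with *Ryr1* as the fourth, beside 6268 of all 23802 tested. SAM, the test the methods name, also called 4, or 3 when false calls were averaged by their mean instead of their median. Without pair 3 or pair 4 none of the 11 was called, with 3 at an unadjusted p under 0.05 each time, and without pair 2, or with both channels well above background, where *Rem1* was not tested, there were 2 calls. With 11 probes, 3 calls, 1 of them *Rem1*, lie close to the share of the whole array, and nothing about the genes as a set is read from them. The median log2 ratio of the 11 probes was −0.14, beside 0.014 for all probes. RNA came from whole muscle, so fewer cells of a type and less RNA per cell cannot be told apart.

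In TA 7 of the 11 probes were called, beside 15.2% of all tested probes. They were 5 lower (*Ryr1*, *Cacnb1*, *Casq2*, *Sln* and 1 *Cacna1s* probe; 7.52% of all probes were called lower) and 2 higher (7.68% called higher), namely 1 *Pvalb* probe and *Rem1*, which again passed the filter through Cy5, with Cy3 well above background on 2 of 4 arrays, and is not read as a measured difference. By gene the count was 5 of 9, 1 higher (*Rem1*) and 4 lower, since the called probes of *Pvalb* and *Cacna1s* were the dimmer of their pairs, beside 8.98% of 12387 genes called higher and 7.28% called lower. SAM called 7 probes as well, or 2 with the mean of false calls, and with both channels well above background, where *Rem1* was not tested, limma called 6. The share of called probes was above that of the whole array, but the 7 include *Rem1*, and the count was 6 where *Rem1* was not tested. Nothing about the genes as a set is read from this share. The count also depended on the arrays kept: it was 1 without pair 1, 4 without pair 2, 5 without pair 3 and 9 without pair 4. Over the whole array the number of called probes without those pairs was 113, 896, 1933 and 3538, beside 3555 with all. The median log2 ratio of the 11 probes was −0.18, beside 0.0022 for all probes.

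Whether genotype acted differently in the muscles was asked by testing the difference of the ratios, gastrocnemius minus TA, over all 8 arrays. limma called 0 of the 11 probes, and none had an unadjusted p under 0.05. Of all 22765 probes tested, 0% were called and 1734 had an unadjusted p under 0.05. A call in only 1 of the muscles, as for *Casq1*, *Ryr1*, *Casq2* and *Sln*, is therefore not shown to be a difference between them. The sign was the same on all 8 arrays for 2 probes, below 0 for *Cacnb1* and above 0 for *Rem1*, whose WT signal was near background. The share of all probes with 1 sign on all 8 arrays was not computed, so nothing is read from this count.

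**Figure D1:**
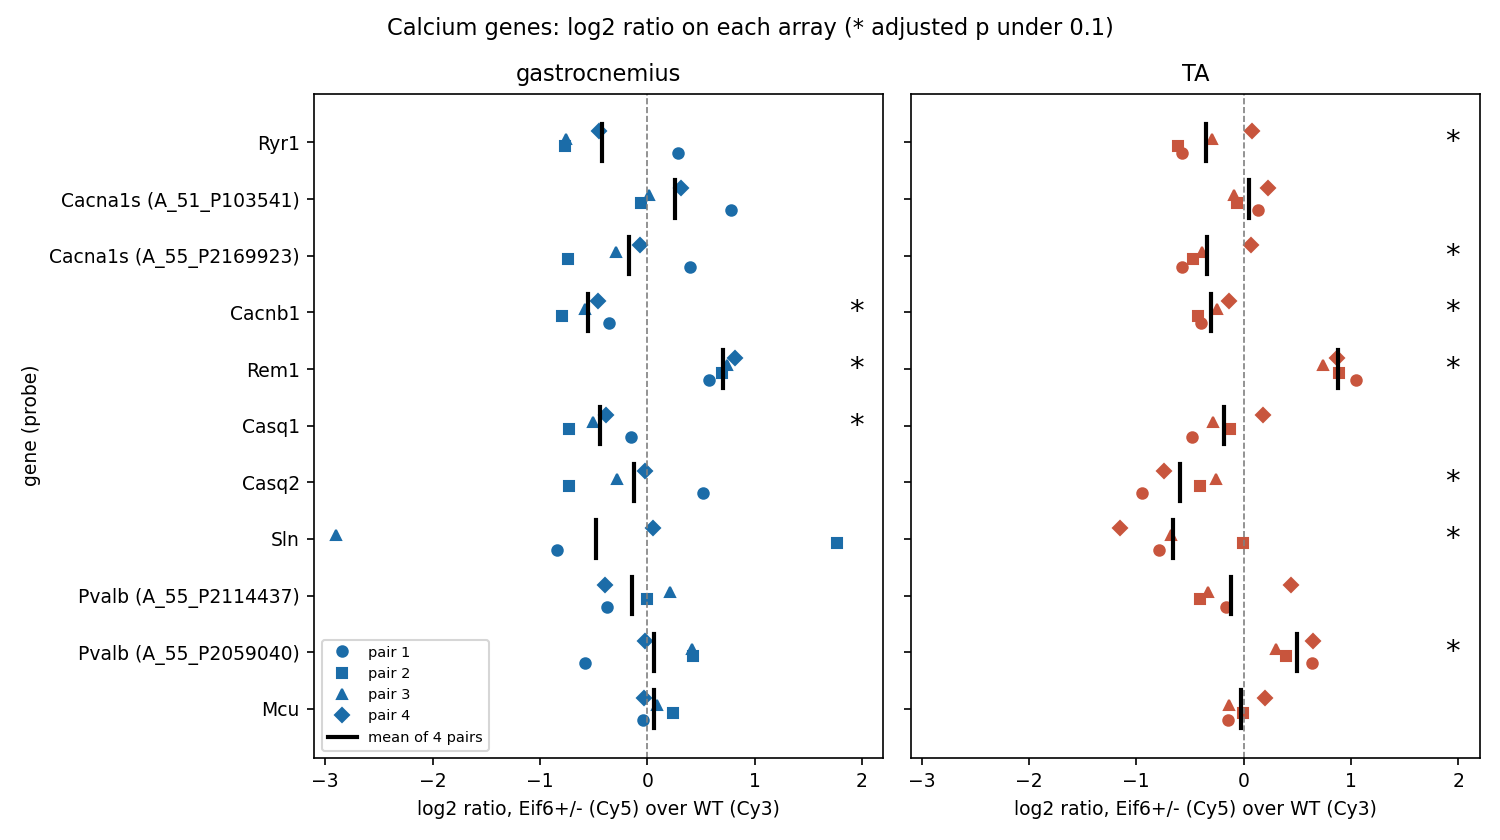
Log2 ratio of *Eif6+/-* over WT (horizontal axis) of each of the 11 probes (vertical axis) on the 4 arrays of gastrocnemius and the 4 of TA, with the mean as a bar and a star where the adjusted p was under 0.1. *Rem1*, set against a WT signal near background, lies above 0 and *Cacnb1* below 0 on all 8 arrays, while *Sln* spreads from −2.90 to 1.76 in gastrocnemius.

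Promoter sequences are shown for the genes with every probe on 1 side of 0 on all arrays of a muscle. These are *Rem1*, whose ratios are set against a WT signal near background, *Cacnb1*, which has 2 starts, *Casq1*, *Casq2* and, by name only, *Sln*. RefSeq promoters (build GRCm38.p6) run from 250 bases before to 50 after a start and matched 8 of the 9 genes, with 10 promoters. They lie at chr2:152626758-152627057, plus strand (*Rem1*), chr11:98022578-98022877, minus strand (*Cacnb1*, start 1), chr11:98018323-98018622, minus strand (*Cacnb1*, start 2), chr1:172219846-172220145, minus strand (*Casq1*) and chr3:102086165-102086464, plus strand (*Casq2*). Capitals mark E-boxes, CANNTG on either strand, the letters that factors of the MyoD family bind, and sequences run 5′ to 3′ on the gene's strand.
Rem1: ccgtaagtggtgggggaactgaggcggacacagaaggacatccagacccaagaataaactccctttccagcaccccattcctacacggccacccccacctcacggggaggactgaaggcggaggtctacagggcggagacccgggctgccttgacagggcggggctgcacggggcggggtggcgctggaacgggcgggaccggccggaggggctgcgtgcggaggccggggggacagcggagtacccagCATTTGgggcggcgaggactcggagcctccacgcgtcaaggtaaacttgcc
Cacnb1 start 1: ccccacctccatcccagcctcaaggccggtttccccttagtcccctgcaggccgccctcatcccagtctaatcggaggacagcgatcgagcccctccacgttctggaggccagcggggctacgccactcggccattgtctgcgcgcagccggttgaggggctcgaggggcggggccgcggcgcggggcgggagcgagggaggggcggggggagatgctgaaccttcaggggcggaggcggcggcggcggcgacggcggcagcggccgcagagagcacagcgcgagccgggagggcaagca
Cacnb1 start 2: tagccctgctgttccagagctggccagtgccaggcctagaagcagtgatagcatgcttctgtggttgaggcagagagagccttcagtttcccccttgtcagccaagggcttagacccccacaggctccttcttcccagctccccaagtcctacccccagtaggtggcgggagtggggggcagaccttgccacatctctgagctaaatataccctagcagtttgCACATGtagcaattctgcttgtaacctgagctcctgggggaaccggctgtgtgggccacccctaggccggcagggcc
Casq1: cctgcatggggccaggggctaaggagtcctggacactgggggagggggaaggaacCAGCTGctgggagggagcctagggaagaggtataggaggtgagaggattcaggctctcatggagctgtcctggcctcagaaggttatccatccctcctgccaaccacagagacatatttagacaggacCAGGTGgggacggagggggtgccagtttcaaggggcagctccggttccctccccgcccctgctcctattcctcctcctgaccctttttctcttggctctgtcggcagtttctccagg
Casq2: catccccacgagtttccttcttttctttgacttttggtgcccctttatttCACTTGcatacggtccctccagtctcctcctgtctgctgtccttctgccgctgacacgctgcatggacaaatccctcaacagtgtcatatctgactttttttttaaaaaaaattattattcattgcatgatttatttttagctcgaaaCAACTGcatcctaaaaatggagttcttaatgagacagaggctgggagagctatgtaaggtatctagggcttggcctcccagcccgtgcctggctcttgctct
The *Rem1* promoter holds 1 E-box, those of *Cacnb1* 0 and 1, and those of *Casq1* and *Casq2* 2 each. An E-box occurs in 7 of the 10 promoters of the calcium genes and in 72.3% of all 32851 promoters. The MEF2 motif was found on either strand in 2 of the 10, *Casq2* and a start of *Pvalb*, and in 3.19% of all promoters, and the CArG box in 0 of the 10 and in 1.63% of all. A match describes letters in this window and nothing more.

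*Ryr1* encodes the release channel of the sarcoplasmic reticulum. Its log2 ratio (probe A_52_P391110) was 0.29, −0.77, −0.75 and −0.45 in gastrocnemius pairs 1 to 4 and −0.58, −0.61, −0.30 and 0.081 in TA pairs 1 to 4. The normalized log2 intensities on the same arrays were 15.01, 15.96, 15.57 and 15.62 in WT and 15.30, 15.20, 14.82 and 15.17 in *Eif6+/-* gastrocnemius, and 15.67, 15.47, 15.10 and 14.99 in WT and 15.09, 14.86, 14.80 and 15.07 in *Eif6+/-* TA. Pair 1 of gastrocnemius and pair 4 of TA lay above 0 and the other 6 arrays below, and in both muscles the levels of the genotypes overlapped. The mean of −0.42 ± 0.49 (SD, n = 4) in gastrocnemius was not called (adjusted p 0.174), and the mean of −0.35 ± 0.32 in TA was (adjusted p 0.0985, 0.784 of WT). The difference between the muscles was −0.07 (adjusted p 0.957). The call was narrow in both directions, since gastrocnemius was called without pair 1 (−0.66, adjusted p 0.0365) or by SAM (0.0932), and TA was not called without pair 1 (−0.28, adjusted p 0.348), pair 2 (−0.26, adjusted p 0.271) or pair 3 (−0.37, adjusted p 0.159). Nor was TA called with quantile normalization alone (−0.35, adjusted p 0.103), with a normexp offset of 0 (−0.35, adjusted p 0.161), without background correction (−0.35, adjusted p 0.107) or from Agilent's processed signals (−0.43, adjusted p 0.149). Over all alternatives the adjusted p ran from 0.0365 to 0.459 in gastrocnemius and from 0.0363 to 0.348 in TA.

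*Cacna1s* encodes the voltage-sensing subunit of the L-type channel, and its 2 probes did not give the same picture. Probe A_51_P103541 had log2 ratios of 0.78, −0.062, 0.019 and 0.32 in gastrocnemius pairs 1 to 4 and 0.13, −0.058, −0.085 and 0.23 in TA pairs 1 to 4. Probe A_55_P2169923 had 0.40, −0.74, −0.29 and −0.063 in gastrocnemius pairs 1 to 4 and −0.58, −0.48, −0.39 and 0.073 in TA pairs 1 to 4. On every array the first probe gave the higher ratio, and the probes lay on opposite sides of 0 in gastrocnemius pairs 3 and 4 and in TA pair 1. The first probe was called in neither muscle, with means of 0.26 ± 0.38 (adjusted p 0.276) and 0.054 ± 0.15 (adjusted p 0.692), and without TA pair 4 its mean there was −0.004. The other had −0.17 ± 0.47 in gastrocnemius (adjusted p 0.543), or 0.015 without pair 2, and was called lower in TA at −0.34 ± 0.29 (adjusted p 0.088, 0.788 of WT). So no direction can be given for the gene as a whole. Why the probes differed was not tested, as their sequences were not at hand and the dyes were never swapped. The TA call was lost without pair 1 (−0.27, adjusted p 0.326), pair 2 (−0.30, adjusted p 0.228) or pair 3 (−0.33, adjusted p 0.177), with a normexp offset of 0 (−0.34, adjusted p 0.147) and from processed signals (−0.39, adjusted p 0.16), and its adjusted p ranged from 0.031 to 0.326. The difference between the muscles was 0.21 (adjusted p 0.772) for the first probe and 0.17 (adjusted p 0.866) for the other.

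*Cacnb1* encodes the β subunit that brings the L-type channel to the triad. Its log2 ratio (probe A_55_P2012563) was −0.36, −0.79, −0.58 and −0.46 in gastrocnemius pairs 1 to 4 and −0.40, −0.42, −0.25 and −0.14 in TA pairs 1 to 4. The normalized log2 intensities on the same arrays were 11.96, 12.42, 12.11 and 12 in WT and 11.61, 11.63, 11.53 and 11.53 in *Eif6+/-* gastrocnemius, and 12.03, 11.90, 11.76 and 11.80 in WT and 11.63, 11.48, 11.51 and 11.66 in *Eif6+/-* TA. All 8 arrays were below 0, and in each muscle every *Eif6+/-* level lay under every WT level. *Cacnb1* was called lower in both muscles, at −0.55 ± 0.19 (SD, n = 4; adjusted p 0.0322, 0.684 of WT) in gastrocnemius and −0.30 ± 0.13 (adjusted p 0.0531, 0.811 of WT) in TA. The difference of −0.25 between the muscles was not called (adjusted p 0.647). The gastrocnemius call was lost only without pair 3 (−0.54, adjusted p 0.131) or pair 4 (−0.58, adjusted p 0.156), where nothing on the array was called, with adjusted p from 0.0282 to 0.156 over all alternatives. The TA call was lost without pair 1 (−0.27, adjusted p 0.224) or pair 2 (−0.26, adjusted p 0.167), with a normexp offset of 0 (−0.31, adjusted p 0.109) and from processed signals (−0.30, adjusted p 0.135), with adjusted p from 0.0406 to 0.224. Its mean stayed below 0 in every alternative, from −0.61 to −0.47 in gastrocnemius and from −0.36 to −0.26 in TA.

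*Rem1* encodes a small GTP-binding protein of the RGK family, which binds β subunits of voltage-gated calcium channels and inhibits the channels. Its log2 ratio (probe A_55_P2113078) was 0.58, 0.69, 0.74 and 0.82 in gastrocnemius pairs 1 to 4 and 1.04, 0.89, 0.74 and 0.87 in TA pairs 1 to 4. The normalized log2 intensities on the same arrays were 6.46, 6.53, 6.36 and 6.33 in WT and 7.04, 7.23, 7.10 and 7.16 in *Eif6+/-* gastrocnemius, and 6.37, 6.38, 6.57 and 6.53 in WT and 7.41, 7.27, 7.30 and 7.39 in *Eif6+/-* TA. The signal was low: Cy5 was well above background on 4 of 4 arrays of each muscle, but Cy3 on 1 of 4 in gastrocnemius and on 2 of 4 in TA, so *Rem1* passed the filter through Cy5, the channel of the *Eif6+/-* mice. The WT levels are thus mostly levels near background, and what the ratios show is a signal in the *Eif6+/-* channel against a WT signal that on most arrays was not well above background. All 8 ratios were above 0, and the lowest *Eif6+/-* level lay above the highest WT level in both muscles. Since the probe passed the filter through Cy5, this separation is not read as support for a difference. limma called the probe in both muscles (adjusted p 0.0269 in gastrocnemius and 0.0109 in TA), a test that takes the WT signal near background as a level. The ratios printed here are therefore not read as a fold, a size of change or a comparison of the muscles. Where both channels had to be well above background on all 4 arrays, *Rem1* was not tested in either muscle, and 2 of the 11 probes were called in gastrocnemius and 6 in TA. The mean ratio depended on the processing, and from processed signals it was 2.43 in gastrocnemius and 2.45 in TA. The cause of this shift was not tested. The call was lost in gastrocnemius without pair 3 or pair 4 (adjusted p 0.121 and 0.156) and in none of the 15 alternatives that tested it in TA, with adjusted p from 0.0101 to 0.156 and from 0.00374 to 0.0987. These alternatives took the same WT signal near background as a level, so a kept call adds no support.

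**Figure D2:**
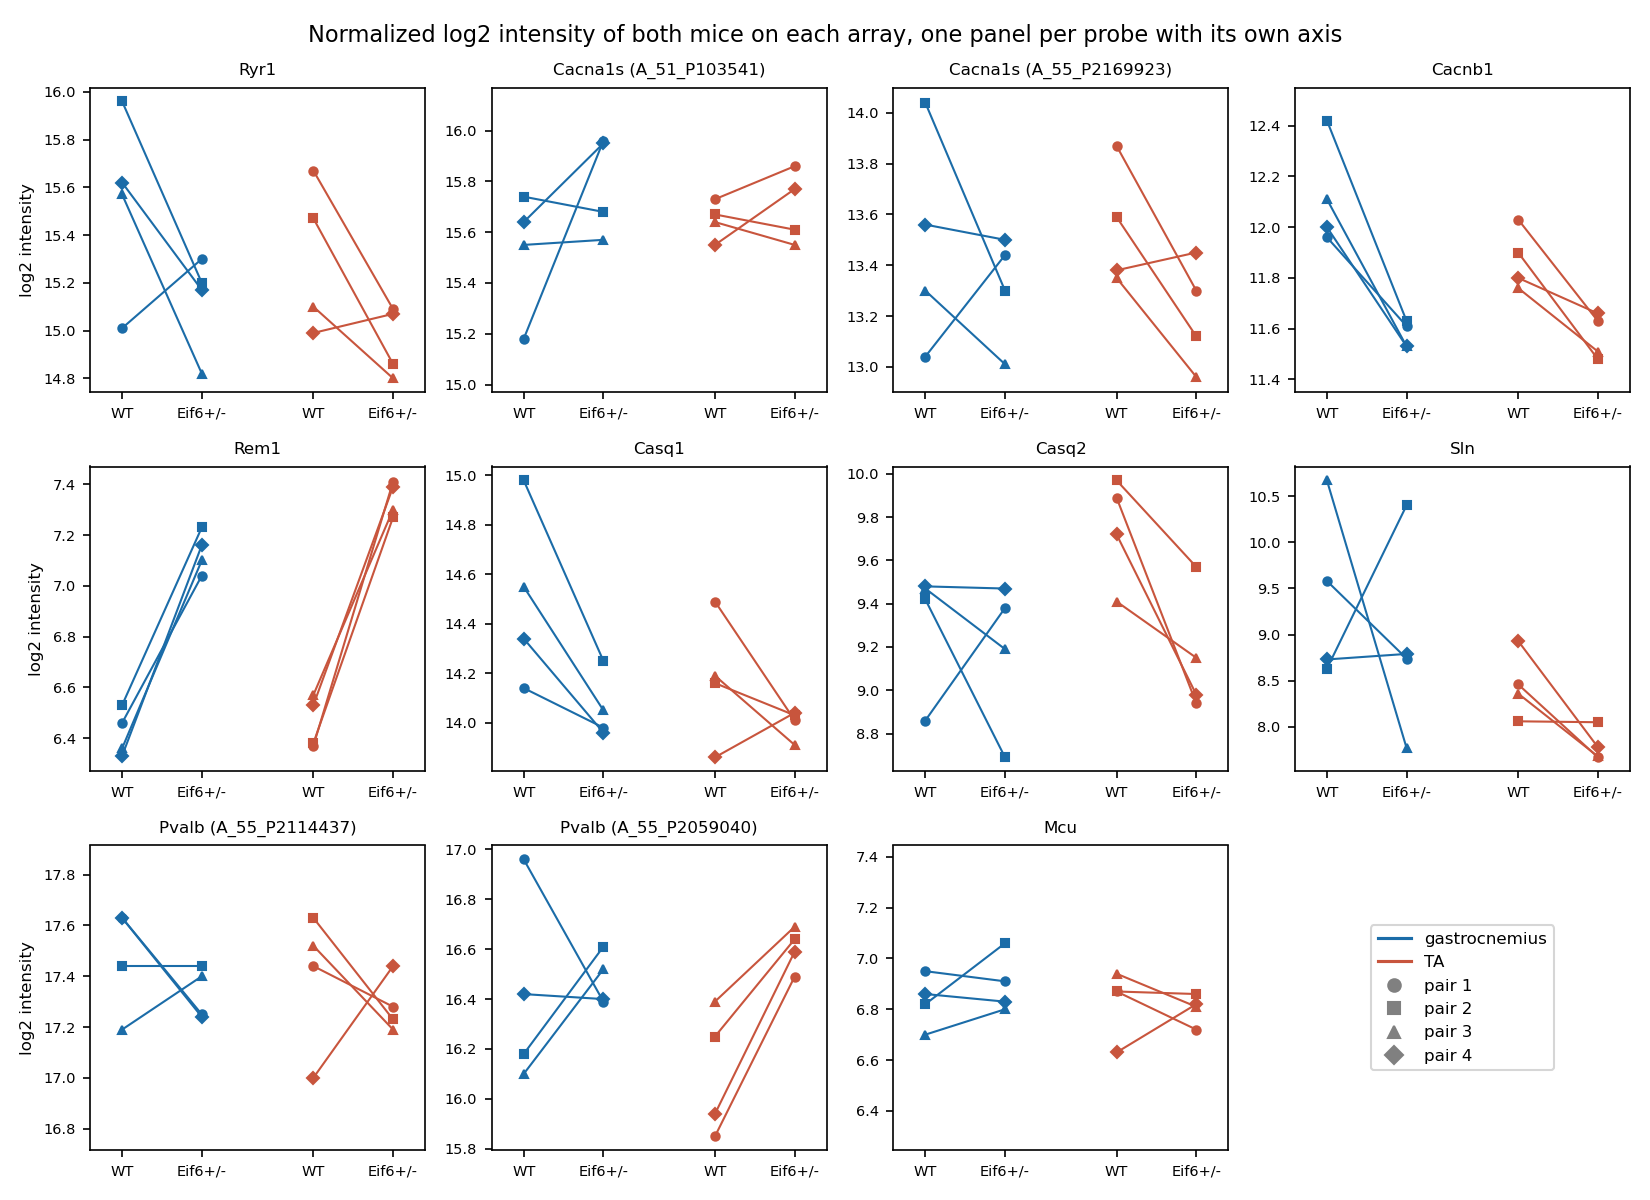
Normalized log2 intensity (vertical axis) of the WT and the *Eif6+/-* mouse of each array, joined by a line, in gastrocnemius and in TA, with 1 panel and 1 scale per probe. The genotypes do not overlap in either muscle for *Cacnb1* and for *Rem1* (WT 6.33 to 6.57, mostly not well above background, *Eif6+/-* 7.04 to 7.41), while they overlap in both for *Ryr1* and *Mcu*. The separation of *Rem1* is not read as a measured difference.

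*Casq1* encodes the calsequestrin of fast fibers and *Casq2* that of heart and slow fibers, both calcium-binding proteins inside the reticulum. The log2 ratio of *Casq1* (probe A_51_P199104) was −0.16, −0.73, −0.50 and −0.39 in gastrocnemius pairs 1 to 4 and −0.48, −0.13, −0.28 and 0.18 in TA pairs 1 to 4. The normalized log2 intensities on the same arrays were 14.14, 14.98, 14.55 and 14.34 in WT and 13.98, 14.25, 14.05 and 13.96 in *Eif6+/-* gastrocnemius, and 14.49, 14.16, 14.19 and 13.86 in WT and 14.01, 14.03, 13.91 and 14.04 in *Eif6+/-* TA. All gastrocnemius arrays and 3 of 4 TA arrays were below 0, and the levels of the genotypes overlapped in both muscles. *Casq1* was called lower in gastrocnemius at −0.44 ± 0.24 (SD, n = 4; adjusted p 0.0538, 0.735 of WT) and not called in TA at −0.18 ± 0.28 (adjusted p 0.302), with a difference of −0.27 between the muscles (adjusted p 0.692). The gastrocnemius call was lost without pair 2 (−0.35, adjusted p 0.105), pair 3 (−0.42, adjusted p 0.187) or pair 4 (−0.46, adjusted p 0.177), and TA was called without pair 4 (−0.30, adjusted p 0.0953). Over all alternatives its adjusted p ran from 0.0433 to 0.187 in gastrocnemius and from 0.0953 to 0.739 in TA.

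*Casq2* (probe A_51_P174696) had log2 ratios of 0.52, −0.73, −0.28 and −0.016 in gastrocnemius pairs 1 to 4 and −0.95, −0.41, −0.26 and −0.75 in TA pairs 1 to 4. The normalized log2 intensities on the same arrays were 8.86, 9.42, 9.47 and 9.48 in WT and 9.38, 8.69, 9.19 and 9.47 in *Eif6+/-* gastrocnemius, and 9.89, 9.97, 9.41 and 9.72 in WT and 8.94, 9.57, 9.15 and 8.98 in *Eif6+/-* TA. In TA all 4 arrays were below 0 although the highest *Eif6+/-* level, in pair 2, lay above the lowest WT level, in pair 3, and in gastrocnemius pair 1, with the lowest WT level, stood against the other 3. *Casq2* was called lower in TA at −0.59 ± 0.31 (SD, n = 4; adjusted p 0.0309, 0.665 of WT), and in gastrocnemius the mean was −0.13 ± 0.52 (adjusted p 0.691), or 0.073 without pair 2. The difference of 0.46 between the muscles was not called (adjusted p 0.66). Without pair 1 *Casq2* was not called in TA (−0.47, adjusted p 0.155), and its adjusted p there ran from 0.0235 to 0.155.

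*Sln* encodes sarcolipin, the small membrane protein that inhibits the SERCA pump. Its log2 ratio (probe A_52_P413395) was −0.84, 1.76, −2.90 and 0.055 in gastrocnemius pairs 1 to 4 and −0.79, −0.0042, −0.68 and −1.15 in TA pairs 1 to 4. The normalized log2 intensities on the same arrays were 9.58, 8.63, 10.67 and 8.73 in WT and 8.74, 10.40, 7.77 and 8.79 in *Eif6+/-* gastrocnemius, and 8.46, 8.06, 8.36 and 8.93 in WT and 7.67, 8.05, 7.68 and 7.78 in *Eif6+/-* TA. In gastrocnemius the pairs pointed in both directions, with 1 WT mouse (pair 3) and 1 *Eif6+/-* mouse (pair 2) well above the rest of their groups, while in TA all 4 ratios were below 0, pair 2 only just, and the genotypes did not overlap. *Sln* was called lower in TA at −0.66 ± 0.48 (SD, n = 4; adjusted p 0.0479, 0.635 of WT) and not in gastrocnemius at −0.48 ± 1.94 (adjusted p 0.663), where the SD exceeded the size of the mean. The difference between the muscles was 0.18 (adjusted p 0.968). The TA call was lost without pair 1 (−0.61, adjusted p 0.218) and from processed signals (−0.97, adjusted p 0.101), with adjusted p from 0.0434 to 0.218. In gastrocnemius the mean ran from −1.23 to 0.33 over the alternatives, the latter without pair 3.

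*Pvalb* encodes parvalbumin, the calcium buffer of the cytosol in fast fibers, and its 2 probes differed. Probe A_55_P2114437 had log2 ratios of −0.38, 0, 0.21 and −0.39 in gastrocnemius pairs 1 to 4 and −0.16, −0.40, −0.33 and 0.44 in TA pairs 1 to 4. Probe A_55_P2059040 had −0.58, 0.43, 0.41 and −0.019 in gastrocnemius pairs 1 to 4 and 0.64, 0.40, 0.30 and 0.65 in TA pairs 1 to 4. The levels of the latter in TA were 15.85, 16.25, 16.39 and 15.94 in WT and 16.49, 16.64, 16.69 and 16.59 in *Eif6+/-*, with no overlap, while in gastrocnemius they overlapped (16.96, 16.18, 16.10 and 16.42 and 16.39, 16.61, 16.52 and 16.40). Probe A_55_P2114437 was among the brightest of the array, where quantile normalization sets the level by rank, and in gastrocnemius pair 2 both genotypes had a level of 17.44, which is the ratio of 0. It was called in neither muscle (−0.14 ± 0.30, adjusted p 0.485; −0.11 ± 0.38, adjusted p 0.601), and its sign depended on the scaling: with loess alone the means were 0.14 and 0.30, in the deposited ratios 0.17 and 0.33, and from processed signals the TA mean was 0.28. Without TA pair 4 it was called lower in TA (−0.30, adjusted p 0.0794), with adjusted p from 0.0794 to 0.957 over the alternatives. Probe A_55_P2059040 was called higher in TA at 0.50 ± 0.17 (SD, n = 4; adjusted p 0.0221, 1.41-fold) and not in gastrocnemius at 0.061 ± 0.47 (adjusted p 0.843), where the mean was −0.098 from processed signals, −0.06 without pair 2 and −0.056 without pair 3. Without pair 1 its TA call was lost (0.45, adjusted p 0.138), and the adjusted p there ran from 0.0139 to 0.138. The difference between the muscles was −0.026 (adjusted p 0.984) for the first probe and −0.44 (adjusted p 0.647) for the other, and with the probes disagreeing no direction is given for the gene.

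*Mcu* encodes the pore of the mitochondrial calcium uniporter. Its log2 ratio (probe A_55_P2141068) was −0.039, 0.24, 0.093 and −0.03 in gastrocnemius pairs 1 to 4 and −0.14, −0.0077, −0.13 and 0.20 in TA pairs 1 to 4, a spread on both sides of 0 in each muscle. The means, 0.066 ± 0.13 (adjusted p 0.633) and −0.022 ± 0.16 (adjusted p 0.881), were smaller than their SD and not called, and the difference between the muscles was 0.088 (adjusted p 0.859). Without TA pair 1 or pair 3 the TA mean was 0.018 and 0.014. *Mcu* thus gave no detectable difference between the genotypes with 4 arrays a muscle.

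The ratios of the calcium genes were also set against each other over the 8 arrays, as a description, since probes on an array share its mice, dyes and normalization. The 2 probes of *Cacna1s* had a Pearson r of 0.867 and the 2 of *Pvalb* 0.578. *Ryr1* went with *Casq1* (0.743) and with the dimmer *Cacna1s* probe (0.862), and *Casq1* with *Cacnb1* (0.866). The strongest opposite pattern was that of *Casq2* and *Pvalb* probe A_55_P2059040 (−0.948). Among 12205 genes, the gene most like each by r was *Rab2b* for *Ryr1* (0.984), *Cpsf1* for *Cacna1s* (0.973), *Adipor1* for *Cacnb1* (0.978), *Rtraf* for *Rem1* (0.968), *Trp53rka* for *Casq1* (0.96), *Klk8* for *Casq2* (0.979), *Fblim1* for *Sln* (0.983), *Crygf* for *Pvalb* (0.978) and *Zfp457* for *Mcu* (0.947). The median of this best r over all genes was 0.972, so such likeness is usual with 8 arrays.

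The levels of the calcium genes in the muscles of WT mice were compared within Cy3. limma called 0 of the 10 probes tested, beside 20.5% of all 21519. An unadjusted p under 0.05 was found for 3 of the 10, beside 6345 of all 21519, and nothing about the genes as a set is read from these 3. By gene it was 0 of 8 tested, beside 8.76% of 11852 genes higher in gastrocnemius and 14.1% lower, and *Rem1* was too dim in Cy3 to be tested. The 3 were *Sln*, at 9.40 ± 0.94 in gastrocnemius and 8.45 ± 0.36 in TA (SD, n = 4 each; difference 0.95, adjusted p 0.14), *Casq2*, at 9.31 ± 0.30 in gastrocnemius and 9.75 ± 0.25 in TA (−0.44, adjusted p 0.104), and *Cacnb1*, at 12.12 ± 0.21 in gastrocnemius and 11.87 ± 0.12 in TA (0.25, adjusted p 0.169). In all of these the WT mice of the muscles overlapped. For the others the differences were 0.24 (adjusted p 0.483) for *Ryr1*, 0.33 (adjusted p 0.263) for *Casq1*, −0.12 (adjusted p 0.551) and −0.066 (adjusted p 0.858) for the brighter and dimmer *Cacna1s* probes, 0.074 (adjusted p 0.775) and 0.31 (adjusted p 0.308) for those of *Pvalb*, and 0.006 (adjusted p 0.973) for *Mcu*, none of them called. In *Eif6+/-* mice (Cy5) the mean levels were 8.92 ± 1.1 and 7.80 ± 0.18 for *Sln*, and 9.18 ± 0.35 and 9.16 ± 0.29 for *Casq2*, in gastrocnemius and TA. *Sln* was called higher in gastrocnemius without gastrocnemius pair 2 (1.21, adjusted p 0.0727) or pair 4 (1.17, adjusted p 0.0943), and *Casq2* lower without TA pair 3 (−0.56, adjusted p 0.0728) or from processed signals (−0.57, adjusted p 0.0525). From processed signals the brighter *Cacna1s* probe was called as well (−0.41, adjusted p 0.0856), and of all called probes 25.2% were then higher in gastrocnemius (1405 of 5569) instead of 37.8% (1670 of 4413). The adjusted p ran from 0.0727 to 0.282 for *Sln*, from 0.0525 to 0.235 for *Casq2* and from 0.0856 to 0.999 for that *Cacna1s* probe. Over the whole array 4413 probes were called, and 2665 without gastrocnemius pair 3, 2800 without TA pair 2, 2701 without TA pair 3 and 2752 without TA pair 4.

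The wider machinery was read from a list of 91 other calcium genes, 88 of them on the array, counted by the brightest probe of each. In gastrocnemius 6 of 78 tested genes were called higher and 10 lower, and the median log2 ratio was −0.025, beside 0.020 for all genes. An unadjusted p under 0.05 was found for 29 of the 78, beside 6268 of all 23802 probes. In TA it was 8 higher and 13 lower of 78, with a median of 0.018, beside 0.019 for all genes. There 36 had an unadjusted p under 0.05, beside 6443 of all 23391 probes. Set against the shares of all genes given above, 9.86% and 5.53% in gastrocnemius and 8.98% and 7.28% in TA, lower calls outnumbered higher ones in the list, while its medians lay close to those of all genes. The counts depended on the arrays kept, as those of the whole array did: in gastrocnemius they were 5 higher and 5 lower without pair 2, and 0 without pair 3 or pair 4 (23 and 20 genes at an unadjusted p under 0.05). In TA they were 0 without pair 1 (25 at an unadjusted p under 0.05), 2 higher and 2 lower without pair 2, and 6 higher and 7 lower without pair 3. They rested on the processing as well: from processed signals they were 4 higher and 6 lower in gastrocnemius and 3 and 6 in TA, with a normexp offset of 0 they were 4 and 9, and 6 and 8, and at an adjusted p under 0.05 they were 2 and 5, and 4 and 6. SAM called 8 higher and 16 lower in gastrocnemius, and 14 higher and 14 lower in TA, or 3 and 6, and 2 and 1, with the mean of false calls. Lower calls thus did not outnumber higher ones without pair 2 of either muscle, nor by SAM in TA. In WT mice 13 of 75 were higher in gastrocnemius and 12 lower, beside 8.76% and 14.1% of all genes, or 11 and 5 without gastrocnemius pair 3, and 7 and 5, 7 and 6, and 8 and 6 without TA pairs 2, 3 and 4. Without gastrocnemius pair 1 they were 9 and 7, and from processed signals 10 and 17.

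By role, genes of release and of the triad had 0 higher and 3 lower of 19 in gastrocnemius, and 2 higher and 4 lower in TA, where all genes had 9.86% higher and 5.53% lower in gastrocnemius and 8.98% and 7.28% in TA, shares that apply to each role below. *Asph* was among those called lower in TA (−0.23, adjusted p 0.09), while its probe A_55_P1967414 was called higher there (0.35, adjusted p 0.0349). Subunits of surface channels had 0 higher and 3 lower of 5 in gastrocnemius, and 0 and 1 in TA. The other RGK proteins had no call by limma, of 2 tested in gastrocnemius (1 at an unadjusted p under 0.05, and 1 lower by SAM) and 1 in TA (0, and 0 by SAM). Pumps and their regulators had 1 lower of 9 in gastrocnemius and 1 lower of 10 in TA. Genes of store-operated entry had none of 7 called by limma in gastrocnemius (2 at an unadjusted p under 0.05, and 1 lower by SAM), and 1 higher and 1 lower in TA. The higher call in TA was *Orai2*. It was not tested where both channels had to be well above background and is not read as a measured difference. Buffers and sensors had 1 lower of 8 in gastrocnemius, and 1 higher and 3 lower in TA. The mitochondrial genes had 3 higher and 0 lower of 10 in gastrocnemius, and 1 and 1 in TA. Calcineurin, its targets and the calcium-dependent kinases and proteases had 3 higher and 2 lower of 18 in both muscles. From processed signals the mitochondrial genes had 1 higher and 0 lower in gastrocnemius and no call by limma in TA (1 at an unadjusted p under 0.05), and the latter group had 2 higher and 1 lower, and 0 and 1. Release and triad then had 0 higher and 3 lower in gastrocnemius, and 1 and 2 in TA, and surface channel subunits 1 lower in each. Buffers and sensors had 1 and 1, and 1 and 2. Store-operated entry had no call in gastrocnemius, and 1 higher and 0 lower in TA. Pumps and their regulators had no call by limma in either muscle (3 at an unadjusted p under 0.05 each time). These counts are few, none was tested against the others, and no direction is given for a role.

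**Figure D3:**
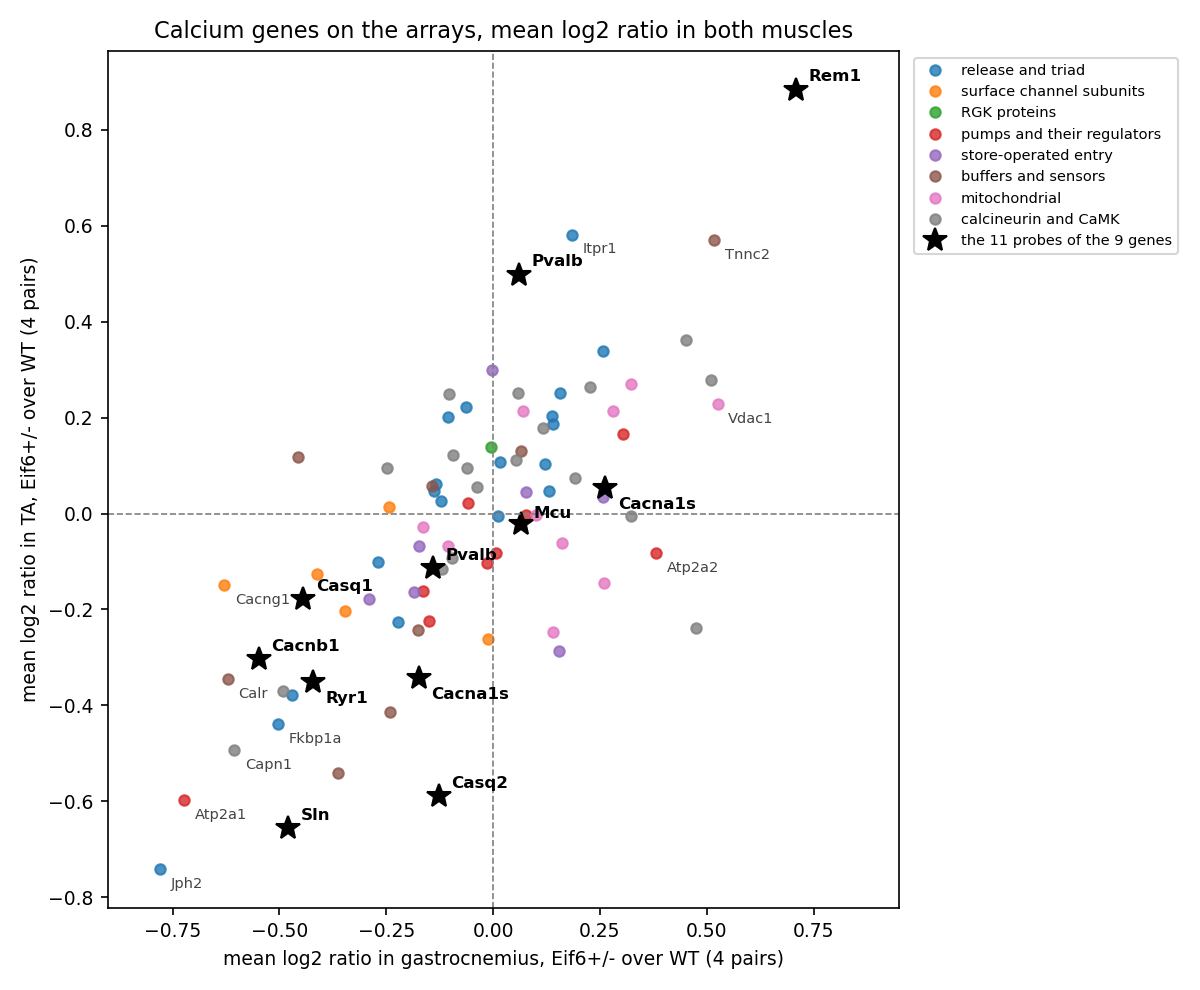
Mean log2 ratio of *Eif6+/-* over WT in gastrocnemius (horizontal axis) and TA (vertical axis) for the genes of the wider calcium list, colored by role, and for the 11 probes, as stars. *Jph2* (−0.78 and −0.74) and *Atp2a1* lie at the lower left and *Rem1*, set against a WT signal near background, at the upper right.

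The genes of smallest adjusted p in gastrocnemius are given with mean log2 ratio and SD over 4 arrays. Lower were *Cacng1* (−0.63 ± 0.15, adjusted p 0.0287), the γ subunit of the L-type channel, *Cacna2d1* (−0.35 ± 0.20, adjusted p 0.0721), its α2δ subunit, *Jph2* (−0.78 ± 0.54, adjusted p 0.0569), a junctophilin that ties the triad membranes together, and *Sypl2* (−0.47 ± 0.18, adjusted p 0.0393), a triad membrane protein. Lower too were *Fkbp1a* (−0.50 ± 0.16, adjusted p 0.0341), which stabilizes the closed ryanodine receptor, *Atp2a1* (−0.72 ± 0.58, adjusted p 0.0749), the SERCA pump of fast fibers, *Calr* (−0.62 ± 0.27, adjusted p 0.0357), a buffer of the reticulum, and *Capn1* (−0.61 ± 0.27, adjusted p 0.0357), a calcium-dependent protease. Higher were *Vdac1* (0.53 ± 0.30, adjusted p 0.0519) and *Vdac2* (0.32 ± 0.037, adjusted p 0.047), channels of the outer mitochondrial membrane, *Nfatc3* (0.51 ± 0.082, adjusted p 0.0287), a target of calcineurin, and *Ppp3cc* (0.45 ± 0.30, adjusted p 0.0674), a catalytic calcineurin subunit. All 12 lost their calls without pair 3 or pair 4, as every probe did. Without pair 2 *Atp2a1* (−0.54, adjusted p 0.149), *Cacna2d1* (−0.29, adjusted p 0.158) and *Jph2* (−0.61, adjusted p 0.107) lost them as well, and without pair 1 *Ppp3cc* did (0.40, adjusted p 0.127). From processed signals *Vdac2* (0.285, adjusted p 0.147), *Atp2a1* (−0.79, adjusted p 0.131) and *Cacna2d1* (−0.30, adjusted p 0.177) lost their calls. The adjusted p over all alternatives ran for *Atp2a1* from 0.0354 to 0.258, *Cacna2d1* from 0.0462 to 0.233, *Jph2* from 0.0334 to 0.2, *Ppp3cc* from 0.056 to 0.232 and *Vdac2* from 0.0317 to 0.176. Other probes went another way for *Nfatc3* (A_52_P333419 −0.035, adjusted p 0.784), and showed smaller ratios that were not called for *Fkbp1a* (A_55_P1991134 −0.073, adjusted p 0.55), *Sypl2* (A_51_P206965 −0.19, adjusted p 0.219) and *Cacna2d1* (A_51_P498720 −0.28, adjusted p 0.126).

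In TA the list was led by other genes in part. Lower were *Jph2* (−0.74 ± 0.43, adjusted p 0.0316), *Fkbp1a* (−0.44 ± 0.21, adjusted p 0.0359), *Atp2a1* (−0.60 ± 0.44, adjusted p 0.0491), *Capn1* (−0.49 ± 0.26, adjusted p 0.035), *Cacna1h* (−0.26 ± 0.079, adjusted p 0.0601), a T-type channel subunit, and the calcium-binding *S100a1* (−0.54 ± 0.29, adjusted p 0.0328), which acts on the ryanodine receptor and the pump. Of the troponin C genes, the slow *Tnnc1* (−0.41 ± 0.18, adjusted p 0.035) was lower and the fast *Tnnc2* (0.57 ± 0.28, adjusted p 0.0263) higher. Higher too were *Itpr1* (0.58 ± 0.26, adjusted p 0.0238), the inositol trisphosphate receptor, *Jsrp1* (0.34 ± 0.096, adjusted p 0.0364), a triad protein, and *Ppp3cc* (0.36 ± 0.12, adjusted p 0.0345). *Orai2* (0.30 ± 0.13, adjusted p 0.0533), a store-operated channel, was called higher as well. It was not tested where both channels had to be well above background, so its call is not read as a measured difference. Of the 12 genes named for each muscle, *Jph2*, *Fkbp1a*, *Atp2a1*, *Capn1* and *Ppp3cc* were in both lists and called with the same sign. Others of the gastrocnemius list were called in TA as well, with the same sign: *Calr* (−0.35 ± 0.24, adjusted p 0.0679), *Sypl2* (−0.38 ± 0.30, adjusted p 0.0731), *Nfatc3* (0.28 ± 0.16, adjusted p 0.0714) and *Vdac2* (0.27 ± 0.13, adjusted p 0.0665). So was *Camk1*, a kinase named after its values were seen, lower at −0.49 ± 0.41, adjusted p 0.0926 in gastrocnemius and −0.37 ± 0.32, adjusted p 0.0879 in TA. The share of all genes called in both muscles with the same sign was not computed. With the dyes never swapped, a dye bias of a probe would enter both muscles, so this overlap is not read as replication. None of the wider list was called by limma in TA without pair 1 (25 at an unadjusted p under 0.05); without pair 2 *Calr* (−0.32, adjusted p 0.183), *Sypl2* (−0.43, adjusted p 0.133), *Nfatc3* (0.25, adjusted p 0.194) and *Vdac2* (0.22, adjusted p 0.199) lost their TA calls too, as did *Sypl2* without pair 3 (−0.36, adjusted p 0.153) and *Nfatc3* without pair 4 (0.28, adjusted p 0.112), with adjusted p for *Calr* from 0.0597 to 0.262, *Sypl2* from 0.0501 to 0.266, *Nfatc3* from 0.0492 to 0.271 and *Vdac2* from 0.0514 to 0.252. Of the 12 genes of TA, those that lost their calls without pair 2 were *Atp2a1* (−0.51, adjusted p 0.149), *Jsrp1* (0.29, adjusted p 0.12), *Fkbp1a* (−0.41, adjusted p 0.112), *Jph2* (−0.69, adjusted p 0.101), *Ppp3cc* (0.35, adjusted p 0.109), *Tnnc1* (−0.33, adjusted p 0.107), *Cacna1h* (−0.25, adjusted p 0.168) and *Orai2* (0.31, adjusted p 0.133). Without pair 3 those of *Atp2a1* (−0.57, adjusted p 0.104), *Cacna1h* (−0.25, adjusted p 0.139) and *Orai2* (0.26, adjusted p 0.138) were lost, and without pair 4 that of *Cacna1h* (−0.24, adjusted p 0.11). The adjusted p over all alternatives ran for *Atp2a1* from 0.0268 to 0.23, *Jsrp1* from 0.0238 to 0.172, *Fkbp1a* from 0.0264 to 0.183, *Jph2* from 0.0248 to 0.172, *Ppp3cc* from 0.0227 to 0.179, *Tnnc1* from 0.0247 to 0.138, *Cacna1h* from 0.0434 to 0.179 and *Orai2* from 0.0405 to 0.222. The TA mean of *Orai2* ran from 0.26 to 1.48 over the alternatives, the latter from processed signals. Other probes went another way for *Cacna1h* (A_55_P1986591 0.12, adjusted p 0.38) and *Nfatc3* (A_52_P333419 −0.066, adjusted p 0.622), and were closer to 0 and not called for *Fkbp1a* (A_55_P1991134 −0.0044, adjusted p 0.975), *Sypl2* (A_51_P206965 −0.057, adjusted p 0.659) and *S100a1* (A_55_P1979650 −0.29, adjusted p 0.114).

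Partners of the calcium genes by role are given next, called or not. *Atp2a1* lost its call in both muscles with loess alone (−0.69, adjusted p 0.136 in gastrocnemius and −0.56, adjusted p 0.114 in TA), with ranges given above. *Atp2a2*, the SERCA pump of slow fibers, had 0.38 ± 1.53, adjusted p 0.661 in gastrocnemius and −0.083 ± 0.21, adjusted p 0.58 in TA, and in WT mice it was 1.71 higher on the log2 scale in gastrocnemius (adjusted p 0.0284). Its other probe (A_52_P168097) had −0.045 (adjusted p 0.954) in gastrocnemius and was called lower in TA at −0.29 (adjusted p 0.0659). *Pln*, the phospholamban that inhibits it, had −0.16 ± 0.13, adjusted p 0.239 and −0.16 ± 0.073, adjusted p 0.169 in gastrocnemius and TA. At the triad, *Jph1* had −0.27 ± 0.31, adjusted p 0.206 and −0.10 ± 0.25, adjusted p 0.53, *Stac3*, which the L-type channel needs for coupling, had 0.012 ± 0.23, adjusted p 0.954 and −0.006 ± 0.21, adjusted p 0.973, and *Trdn*, which ties calsequestrin to the release channel, had −0.13 ± 0.18, adjusted p 0.379 and 0.061 ± 0.12, adjusted p 0.62. A further *Trdn* probe (A_55_P1966778) had the opposite sign in each muscle, 0.077 and −0.052. *Rrad*, an RGK protein like *Rem1*, had −0.51 ± 0.48, adjusted p 0.114 in gastrocnemius, and was too dim to be tested in TA. Apart from *Atp2a1*, limma called none of these in either muscle by its brightest probe. *Rrad* was called lower in gastrocnemius by SAM (0.0565), with a normexp offset of 0 (−0.91, adjusted p 0.0995), without background correction (−0.64, adjusted p 0.0759) and in the deposited ratios (−0.67, adjusted p 0.0835), with adjusted p by limma from 0.0759 to 0.333. *Pln* was called lower in TA with a normexp offset of 0 (−0.37, adjusted p 0.0822), with adjusted p from 0.0822 to 0.442, and was not tested in either muscle with both channels well above background.

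Since several of these genes differ by fiber type, fiber and tissue markers were read on the same arrays. Of all genes, 9.86% were called higher and 5.53% lower in gastrocnemius, and 8.98% and 7.28% in TA. Between WT muscles 8.76% were called higher in gastrocnemius and 14.1% lower. These shares apply to each marker list here and in the paragraphs that follow. All 5 skeletal muscle markers were well above background, the brightest probe being that of *Acta1*, and 0 higher and 2 lower were called in gastrocnemius and 1 higher and 2 lower in TA. The log2 ratio of their summed intensity was 0.20, −0.22, −0.13 and −0.16 in gastrocnemius and −0.29, −0.33, −0.41 and −0.22 in TA, pairs 1 to 4 in turn. Without gastrocnemius pair 2 there was 1 lower, without TA pair 1 none (3 at an unadjusted p under 0.05), without TA pair 2 or pair 3 there was 1 lower, and without TA pair 4 there were 1 higher and 3 lower, while with loess alone there were 1 higher and 1 lower in gastrocnemius and 2 and 2 in TA. Without gastrocnemius pair 3 or pair 4 no marker of any list was called (13 and 15 of 51 at an unadjusted p under 0.05). All 8 slow fiber markers were well above background, the brightest probe being that of *Myl3*. Their summed log2 intensity was 13.90, 16.05, 15.39 and 17.28 in WT and 17.11, 14.99, 15.60 and 17.10 in *Eif6+/-* gastrocnemius, and 13.68, 15.15, 13.49 and 15.29 in WT and 13.66, 14.63, 13.43 and 13.85 in *Eif6+/-* TA. Slow fiber signal varied widely among WT mice, from 13.90 to 17.28 in gastrocnemius, and pair 1 of that muscle set a WT mouse of low signal against an *Eif6+/-* mouse of high signal. In TA 4 of 8 slow markers were called lower (*Tnnc1*, *Tnni1*, *Tnnt1* and *Myoz2*), and in gastrocnemius 0 of 8 by limma, with 0 at an unadjusted p under 0.05. The log2 ratio of the sum was 3.21, −1.06, 0.21 and −0.18 in gastrocnemius and −0.02, −0.52, −0.06 and −1.44 in TA. Without TA pair 1 the count was 0 (5 at an unadjusted p under 0.05) and without TA pair 2 it was 2, while without gastrocnemius pair 1 it was 3 lower. In WT mice 6 of 8 were higher in gastrocnemius than in TA. *Casq2* had the sign of the slow sum in gastrocnemius pairs 1, 2 and 4 and on all 4 TA arrays, and *Sln* on the TA arrays, while in gastrocnemius the slow sum and *Sln* had opposite signs in all 4 pairs, as did the slow sum and *Casq2* in pair 3, and in TA pair 1 *Casq2* was −0.95 and *Sln* −0.79 where the slow sum was −0.02. The part of slow fiber signal in the *Casq2* and *Sln* results was not tested.

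Of 8 fast fiber markers, all well above background and the brightest probe being that of *Tnnt3*, 1 was called higher and 2 lower in gastrocnemius, and 2 higher and 1 lower in TA. Their summed log2 intensity was 19.81, 19.59, 19.52 and 19.67 in WT and 19.74, 19.79, 19.76 and 19.79 in *Eif6+/-* gastrocnemius, and 19.36, 19.71, 19.70 and 19.63 in WT and 19.83, 19.78, 19.74 and 19.88 in *Eif6+/-* TA. Without gastrocnemius pair 1 the count was 4 higher and 1 lower, without pair 2 it was 1 and 0, and without TA pair 1, pair 2 or pair 3 it was 1 and 0, 2 and 0, and 2 and 0. The split depended on the scaling too: with loess alone or in the deposited ratios it was 4 higher and 0 lower in gastrocnemius and 4 and 1 in TA, and from processed signals 3 and 1, and 3 and 0. SAM called 3 higher and 4 lower in gastrocnemius, and 2 and 1 in TA, so no direction is given for the fast markers. *Myh2*, the marker of IIA fibers, had log2 ratios of 3.92, 0.52, 1.40 and 0.63 in gastrocnemius and 1.44, −0.04, 0.34 and −1.55 in TA, and was called in neither muscle by limma (1 and 0 at an unadjusted p under 0.05). It was called higher in gastrocnemius without pair 1, without pair 2, with loess alone, with quantile normalization alone, without background correction, in the deposited ratios, with both channels well above background and by SAM. Of 4 heart markers only *Myh6* was well above background, and *Tnni3*, *Nppa* and *Mybpc3* were not; *Myh6* was called in neither muscle, with an unadjusted p above 0.05 in both. The log2 ratio of the heart sum was 0.34, 0.11, −0.06 and 0.09 in gastrocnemius and 0.14, −0.01, −0.88 and −0.38 in TA. *Tnnc1*, *Tnnc2* and *Atp2a2* belong both to the calcium list and to a fiber list.

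**Figure D4:**
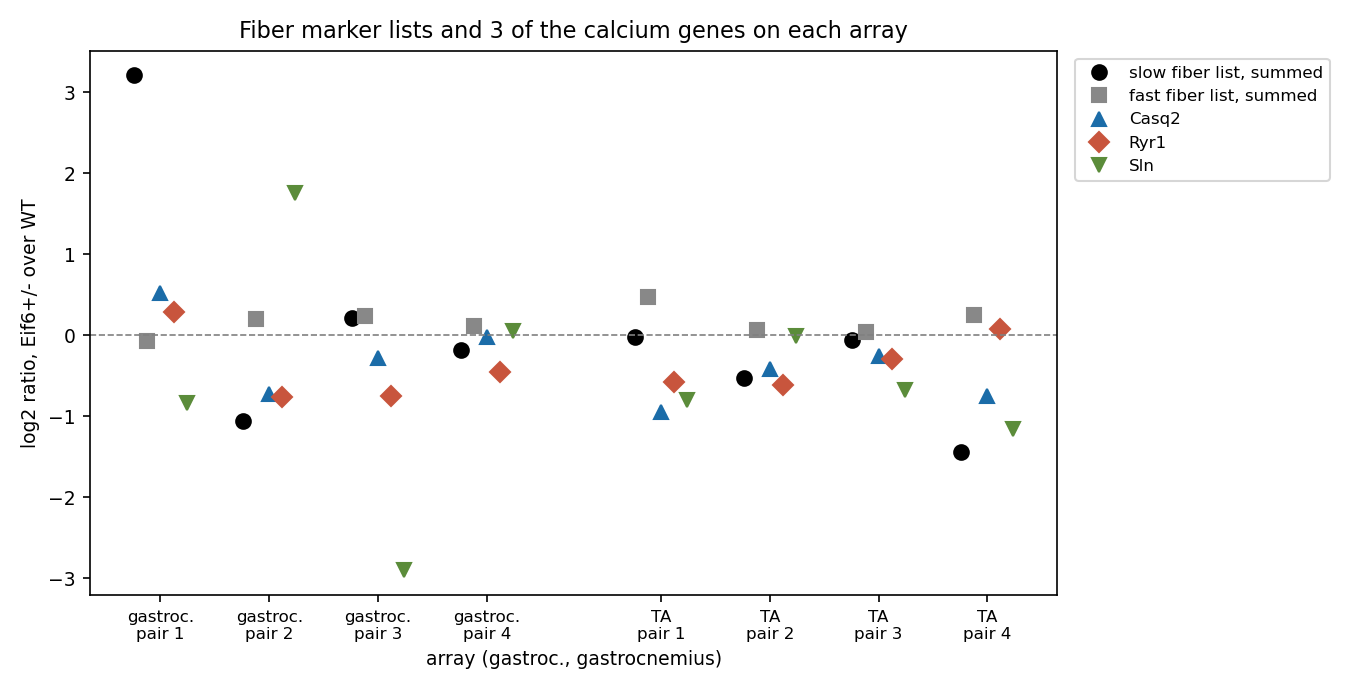
Log2 ratio of *Eif6+/-* over WT (vertical axis) on each array (horizontal axis) for the summed slow and fast fiber markers and for *Casq2*, *Ryr1* and *Sln*. The slow fiber sum reaches 3.21 in gastrocnemius pair 1, where *Casq2* (0.52) and *Ryr1* (0.29) are also above 0 and *Sln* (−0.84) is below, while the fast fiber sum stays between −0.07 and 0.47.

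Markers of other tissues moved in places as well. Of the 4 blood markers (brightest probe that of *Hba-a1*) 4 were called lower in TA and 0 in gastrocnemius by limma, where 3 had an unadjusted p under 0.05 and SAM called 3 lower. Their summed log2 intensity was 14.11, 14.73, 14.90 and 14.37 in WT and 14.17, 14.23, 14.12 and 14.29 in *Eif6+/-* gastrocnemius, and 14.76, 14.58, 14.45 and 14.50 in WT and 14.06, 13.37, 13.81 and 14.15 in *Eif6+/-* TA. Every TA array thus had less hemoglobin signal in the *Eif6+/-* mouse, while in gastrocnemius pair 1 did not. Without TA pair 1 none was called (4 at an unadjusted p under 0.05), and without gastrocnemius pair 1 there were 3 lower. Of the 4 smooth muscle markers (brightest probe that of *Tagln*) 1 was called lower in gastrocnemius and 3 in TA, or 0 without TA pair 1 (3 at an unadjusted p under 0.05), 1 without TA pair 2 and 2 in gastrocnemius without pair 2. Their summed log2 intensity was 13.94, 13.23, 13.26 and 13.84 in WT and 13.62, 13.28, 12.67 and 13.58 in *Eif6+/-* gastrocnemius, and 13.47, 12.99, 13.26 and 12.87 in WT and 12.81, 12.49, 12.48 and 12.72 in *Eif6+/-* TA. Both lists were lower in TA as *Casq2* and *Sln* were, all their genes were well above background, and their part in the result was not tested.

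The remaining lists are given by their calls and by the log2 ratio of their summed intensity. Fat markers (brightest probe that of *Cfd*) had 2 lower of 4 tested in gastrocnemius and 2 higher in TA, with −0.51, −0.05, −1.03 and −1.67 in gastrocnemius and 0.45, −0.56, 1.79 and 0.25 in TA. Without TA pair 1, pair 3 or pair 4 none was called in TA (2 at an unadjusted p under 0.05 each time), without TA pair 2 there were 3 higher, and without gastrocnemius pair 1 there was 1 lower. Nor was a fat marker called by limma in TA with a normexp offset of 0 or from processed signals (2 at an unadjusted p under 0.05 each time), or in gastrocnemius from processed signals (2). Nerve markers (brightest probe that of *Pmp22*) had none of 4 called by limma in gastrocnemius (0 at an unadjusted p under 0.05) and 2 lower in TA, with −0.31, −0.25, −0.08 and 0.21 in gastrocnemius and −0.15, −0.54, 0.01 and −0.47 in TA. In TA none was called without pair 1 (3 at an unadjusted p under 0.05), and 1 without pair 2 or pair 4. *Mbp* was among the nerve markers called lower in TA (−0.21, adjusted p 0.0875), while its probe A_52_P604195 was called higher there (0.33, adjusted p 0.0669). Leukocyte markers (brightest probe that of *Itgam*) had 1 lower of 3 in gastrocnemius and none of 4 in TA (2 at an unadjusted p under 0.05), with −0.25, −0.48, −1.18 and −0.17 in gastrocnemius and −0.03, −0.35, 0 and 0 in TA. Endothelial markers (brightest probe that of *Kdr*) had none of 4 in gastrocnemius (1 at an unadjusted p under 0.05) and 1 lower in TA, with −0.16, −0.32, 0.09 and −0.23 in gastrocnemius and −0.23, 0.01, −0.01 and −0.03 in TA. The endothelial count was 1 lower in gastrocnemius without pair 1, and in TA it was 0 without pair 1, 2 or 4 (1, 1 and 2 at an unadjusted p under 0.05). Connective tissue markers (brightest probe that of *Col1a2*) had none of 5 called in either muscle (1 and 0 at an unadjusted p under 0.05), with 0.03, 0.05, −1.36 and 0.33 in gastrocnemius and 0.24, −0.84, 2.16 and −0.19 in TA, and 1 lower in gastrocnemius without pair 2, 1 higher in TA without pair 2 and 1 lower in TA without pair 3. SAM called 1 endothelial and 1 connective tissue marker lower in gastrocnemius, and 1 leukocyte marker higher and 1 lower in TA. The connective tissue genes showed no common direction over the arrays, and the part of these lists in the calcium results was not tested.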

How the data were processed

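Gene expression of gastrocnemius and TA was measured on 8 two-channel Agilent arrays. The authors deposited scanner output (Feature Extraction 10.5.1.1) with spot and local background intensity, not normalized, Agilent's processed intensity, and other values, namely quality marks per spot of 0 or 1. The deposited table gives Cy5 over Cy3 as log2 ratios, with loess applied within each array, without quantile normalization; its column medians were 0.00257, 0.000831, −0.00441 and 0.00375 (gastrocnemius pairs 1 to 4) and 0.00138, −0.000366, 0.00288 and 0.00212 (TA). Median intensities were corrected by normexp (offset 50), normalized by loess with control spots at weight 0 and by quantiles over 16 channels (limma 3.58.1, R 4.3.3; figures in Python 3.11.15, matplotlib 3.10.9). Control spots and outlier spots (233 to 318 per array) were left out and the spots of a probe averaged. A probe was tested if each of the 4 arrays of the muscle had at least 1 of its spots well above background in Cy5 or Cy3. Tests were lmFit and eBayes of ratios against 0, of the difference between the muscles (22765 probes) and of WT levels in Cy3 (21519 probes), two-sided; the code was tested on simulated data. The methods name SAM at an FDR of 5%, the results 10%, and the threshold here was 0.1. RefSeq accessions named 27235 of 28685 probes that had one. Named are the 9 genes, *Eif6*, the 12 genes of smallest adjusted p per muscle in the wider list, partners by role (1 of them is not reported here), and the gene most like each of the 9. Lists were the wider calcium list (8 roles) and markers of skeletal muscle, fast, IIA and slow fibers, heart, fat, blood, leukocytes, smooth muscle, endothelium, connective tissue and nerve. Genes and lists were chosen with earlier results of these data known. Alternatives were other normalizations, background corrections, filters, thresholds and tests, each array left out, and pair number as a block. Soleus, polysomes, human data and the proteome were not analyzed.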

Additional observations from a re-analysis of the deposited data

Results flagged for a closer look

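Within groups of 4 mice or arrays, values of the calcium genes were searched for 1 that stood apart from the rest. Of 66 groups examined, 1 had such a value: the WT level of *Casq2* in gastrocnemius pair 1 was 8.86 on the log2 scale, with the other WT mice at 9.42, 9.47 and 9.48, a gap of 0.897 of the whole range. Chance marks about 1 in 20 groups, so 1 of 66 is no more than that. The summed slow fiber signal of this mouse, 13.90, was the lowest of the 4 WT gastrocnemius samples, and its part in the *Casq2* value was not tested.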

How the results depend on the processing

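Each result was recomputed with loess or quantile normalization alone, a normexp offset of 0, the deposited ratios, no background correction, processed signals from Agilent's software, other filters, SAM, an adjusted p under 0.05, and each array left out. Of the recomputed log2 ratios of the 11 probes, 296 kept their side of the threshold with their direction where called, 36 fell short of it, 4 passed it newly and 14 that were not called moved in sign or by more than 1 SD. No called ratio or difference changed sign. For the differences between the muscles, of ratios and of WT levels, the numbers were 354, 0, 5 and 19, and for the other named genes 718, 114, 19 and 25.

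Counts of called probes, over the whole array and among the 11, moved as follows. In gastrocnemius 3275 probes were called, 5459 by SAM and 1080 at an adjusted p under 0.05; in TA 3555, with 2293 at a normexp offset of 0 (4 of the 11), 1781 from processed signals (3 of the 11), 5585 without a filter and 1393 at an adjusted p under 0.05 (4 of the 11). SAM with false calls averaged by the mean gave 1557 in gastrocnemius and 376 in TA (2 of the 11). The difference between the muscles had 0 called probes by limma (1734 at an unadjusted p under 0.05), and 1 from processed signals and 1 without a filter. WT muscles differed at 4413 probes, 2539 at an adjusted p under 0.05, and processed signals called 2 of the calcium probes instead of 0. The cause of these shifts was not tested.

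With 1 array left out, called probes ranged from 0 to 2956 in gastrocnemius (0 to 4 of the 11), from 113 to 3538 in TA (1 to 9 of the 11) and from 2665 to 4397 between WT muscles (0 to 1), and stayed at 0 to 0 for the difference between the muscles (1013 to 2966 at an unadjusted p under 0.05). With 3 arrays of a muscle the test has fewer degrees of freedom.

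With pair number as a block, on the assumption that equal numbers are the same mice, the difference between the muscles again had 0 called probes by limma (1414 at an unadjusted p under 0.05) and 0 of the 11, and the WT muscles 3033 and 0 of the 11 (2 at an unadjusted p under 0.05). Array deviations of equal number correlated at −0.145, 0.0186, −0.356 and 0.0896 across probes, which are not independent replicates, and the labels state no pairing.

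A choice of processing was made after seeing the data in 2 places, besides the genes noted as named after their values were seen. SAM's false calls were first averaged by the mean, and the median came after its counts were known. The filter asked first for a larger share of a probe's spots to be well above background, then for any 1; the former calls 3279 and 3552 probes and, of the 11, 3 and 7.

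The limits are these. Dye and genotype are bound together, so a dye bias of a probe would add to its ratio in both muscles. There were 4 arrays a muscle, and most calls on the 11 probes were lost when some 1 array was left out, where calls over the whole array fell too. *Rem1* and *Mcu* were dim, with *Rem1* in WT near background, and *Pvalb* so bright that ranks set its value. Probes of 1 gene disagreed for *Cacna1s* and *Pvalb*. Protein, calcium flux and contraction were not measured on these arrays.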
